A study of Mus musculus with 4 samples.

Results

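The genes described here are 10 genes of fibroblast growth factor (FGF) signalling, the receptors Fgfr1, Fgfr2 and Fgfr3 and 7 genes that ERK signalling induces and that mostly restrain it, Spry1, Spry2, Spry4, Spred1, Spred2, Dusp6 and Etv5. They were taken by symbol from 23435 gene symbols with a usable value in every library, all 10 were found, and all 10 were among the 11361 genes tested. The libraries were made from primary mouse oligodendrocyte precursor cells that had been kept for 1 day with T3, the thyroid hormone that starts oligodendrocyte differentiation in culture. There were 2 control and 2 knockout libraries, all of a mixed strain background. The knockout libraries are labelled lncOL1-/-, a homozygous loss of the long noncoding RNA lncOL1. The control label lists lncOL1+/+ together with lncOL1+/- for both libraries, so a control may carry 1 mutant allele. The labels do not say whether the libraries came from separate animals or cultures, so the p-values measure the spread between these libraries, which may be technical. The comparison asks which genes differ in expression when lncOL1 is lost.

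FGFs bind receptor tyrosine kinases together with heparan sulfate, and the activated receptor recruits adaptors that switch on Ras, Raf, MEK and the kinase ERK. ERK then induces its own brakes: Sprouty and Spred proteins act on the path from the receptor to Ras and Raf, the phosphatase DUSP6 removes the activating phosphates from ERK, and ETS factors such as ETV5 carry the transcriptional response. In the oligodendrocyte lineage Fgfr3 is known from precursors, Fgfr1 from precursors and later stages and Fgfr2 from differentiating and myelinating cells. Loss of Fgfr1 and Fgfr2 together in the lineage of mice is known to give thinner myelin.

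The deleted gene and the markers of the lineage were checked first. lncOL1, listed under the symbol 9630013A20Rik, had 28.9 and 34.0 FPKM in control, against 5.54 and 5.06 FPKM in knockout. It was thus lower in both knockout libraries but not at 0, and the labels do not say which part of the gene was deleted. FPKM are fragments scaled to the transcript's length and to the mapped fragments of the library, so levels of different genes can be compared. Olig1, Olig2, Sox10, Nkx2-2 and Myrf, the factors that define the lineage, were all present. Olig2 was at 257.9 and 253.1 FPKM in control and 283.3 and 302.8 FPKM in knockout. Nkx2-2 was at 101.6 and 98.8 FPKM in control and 128.0 and 148.6 FPKM in knockout (limma adjusted p = 0.0747). Myrf was at 249.2 and 261.1 FPKM in control and 228.9 and 245.8 FPKM in knockout (limma adjusted p = 0.623). Knockout minus control on the log2 scale was negative for Myrf (-0.10) and positive for the other 4, from 0.02 for Sox10 to 0.46 for Nkx2-2. Of the 5, limma called none, and the authors' deposited table marks 1 higher and 1 lower, against 5.78% of all genes it tested in either direction. Across all genes tested, 89 were lower and 60 higher in the knockout by limma (adjusted p under 0.05), which is 0.783% and 0.528% of them.

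Fgfr2 was the one gene of the 10 that passed the test. Control libraries held 20.9 and 20.8 FPKM, and knockout libraries 10.7 and 11.7 FPKM. Both knockout values lie far below both control values, with a gap many times the spread within either group. The mean fell by 46.5%, from 20.8 ± 0.0459 to 11.2 ± 0.708 FPKM (SD, n = 2 each). On the log2(FPKM + 1) scale, used for all fold changes here, the change was -0.85 (SE 0.074, 95% interval -1.02 to -0.67, limma adjusted p = 0.00579). Among the 89 genes called lower it ranked 21 by the size of its fall. In these bulk samples a lower level per cell and fewer cells that express the gene cannot be told apart.

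The authors' deposited table gives the same direction for Fgfr2, 20.5 FPKM in control and 10.6 FPKM in knockout, with a log2 fold change of -0.95 and a q listed as 0. The limma call depends on having all 4 libraries. Leaving out control replicate 1 gave an adjusted p of 0.0713, control replicate 2 one of 0.0626, knockout replicate 1 one of 0.0803 and knockout replicate 2 one of 0.0774, while the log2 fold change stayed between -0.91 and -0.79. With no filter on low values the adjusted p was 0.0600.

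**Figure D1:**
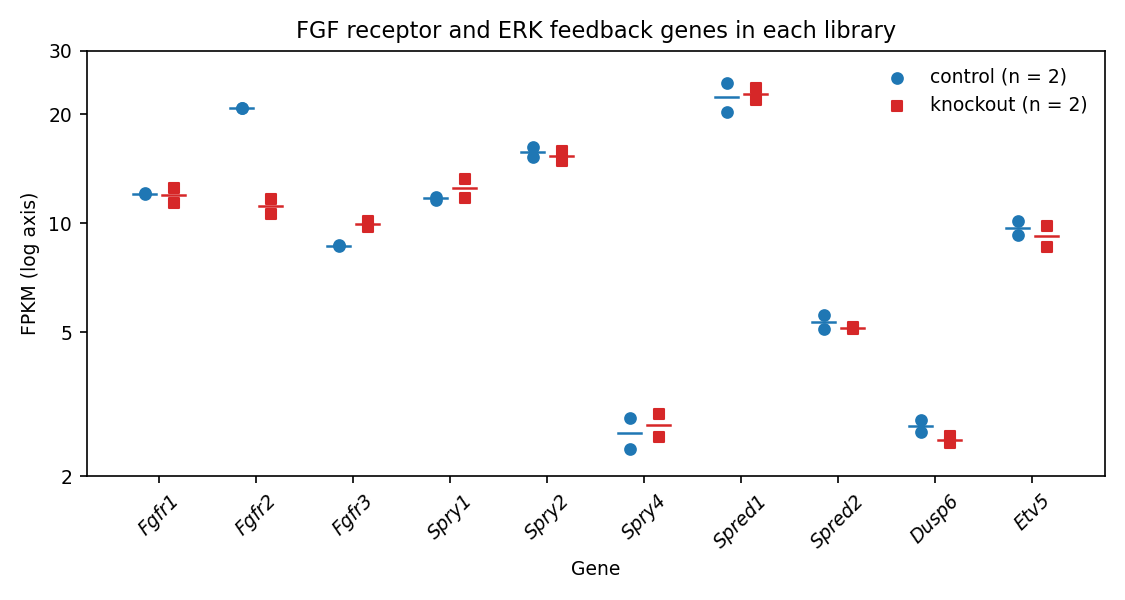
FPKM of each of the 10 genes (log axis) in the 2 control libraries (blue circles) and the 2 knockout libraries (red squares), with a line at each group mean. Fgfr2 sits at 20.8 to 20.9 FPKM in control and 10.7 to 11.7 FPKM in knockout. The values of the groups overlap for 7 of the 10 genes and do not for 3, against 43.4% of all genes tested without overlap.

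Fgfr1 did not follow. Both control libraries were at 12.1 FPKM, and the knockout libraries at 11.4 and 12.5 FPKM. The knockout values lie on either side of the control values, and the log2 fold change was -0.02 (95% interval -0.20 to 0.16, limma adjusted p = 0.958). A fall of the size seen in Fgfr2 lies outside that interval.

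Fgfr3 was slightly above control in both knockout libraries. It was at 8.67 and 8.70 FPKM in control and 9.76 and 10.2 FPKM in knockout. The groups did not overlap, but the difference of 0.18 on the log2 scale (SE 0.070) did not pass the test across genes, with an unadjusted p = 0.0391 and a limma adjusted p = 0.326. The authors' deposited table gives a log2 fold change of 0.11 with q = 0.883 for Fgfr3 and of -0.10 with q = 0.885 for Fgfr1.

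Expressed as a balance between receptors, the difference was large against the replicate spread. The ratio of Fgfr2 to Fgfr1 was 1.72 in both control libraries and 0.933 in both knockout libraries, so in these tables Fgfr2 lay above Fgfr1 in control and just below it in knockout. In the authors' deposited table Fgfr2 stays slightly above Fgfr1 in knockout (10.6 and 9.93 FPKM), and its locus for Fgfr1, chr8:25518772-25575714, differs from that of the per-library tables. The ratio of Fgfr2 to Fgfr3 was 2.41 and 2.39 in control and 1.09 and 1.15 in knockout. Fgfr2 made up 50.1% and 50.02% of the summed FPKM of the 3 receptors in control and 33.5% and 34.0% in knockout. The shares of Fgfr1 and Fgfr3 were correspondingly higher, since shares of one sum cannot move alone. The sum itself was 41.6 and 41.6 FPKM in control and 31.8 and 34.3 FPKM in knockout. For each of these quantities the groups did not overlap, and the two-sided exact permutation test over the 4 libraries gave p = 0.333, the smallest value that 2 against 2 samples allow.

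**Figure D2:**
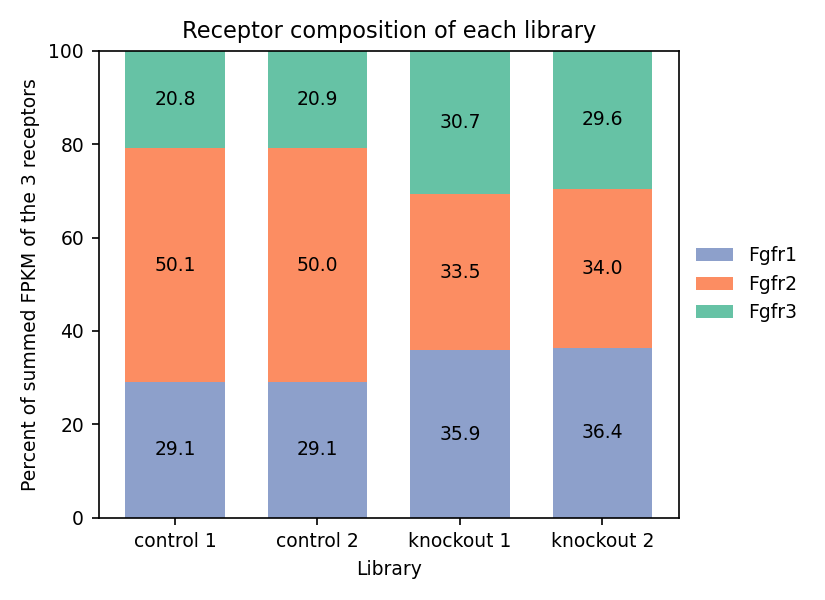
Percent of the summed FPKM of Fgfr1, Fgfr2 and Fgfr3 taken by each receptor gene (stacked bars, 0 to 100%) in each of the 4 libraries. The Fgfr2 segment is 50.1% and 50.02% in control and 33.5% and 34.0% in knockout.

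The starts of the receptor genes also differ in sequence. In RefSeq's promoter windows for GRCm38.p6, which run from 250 bases before to 50 bases after an annotated start, the Fgfr2 window held 4 CpG dinucleotides and 43.7% G or C. The other 7 genes of the group with a window held 17 to 40 CpG, and the median over all 32851 windows was 7. As few CpG as in the Fgfr2 window were found in 38.0% of all windows, so the Fgfr2 count is ordinary for the genome and low for this group. The 250 bases before the start are shown for Fgfr2, the receptor gene that fell, and for Fgfr3, which lay slightly higher, 5′ to 3′ on the strand of the gene, with each CpG in capitals. The Fgfr2 stretch is chr7:130266809-130267058 on the minus strand and holds 2 CpG. The Fgfr3 stretch is chr5:33721474-33721723 on the plus strand and holds 19.
Fgfr2: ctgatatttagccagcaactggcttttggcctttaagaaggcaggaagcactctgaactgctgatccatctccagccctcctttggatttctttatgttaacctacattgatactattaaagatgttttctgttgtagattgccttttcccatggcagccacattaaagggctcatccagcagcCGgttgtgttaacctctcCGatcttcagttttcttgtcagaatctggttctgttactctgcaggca
Fgfr3: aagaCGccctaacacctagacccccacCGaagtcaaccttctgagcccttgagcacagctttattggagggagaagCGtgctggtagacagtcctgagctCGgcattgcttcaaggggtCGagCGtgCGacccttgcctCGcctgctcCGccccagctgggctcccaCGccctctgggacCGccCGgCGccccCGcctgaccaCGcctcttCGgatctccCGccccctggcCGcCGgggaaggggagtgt

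The 7 feedback and target genes differed little between the groups. None was called by limma, against 0.783% of all genes called lower and 0.528% called higher, and their log2 fold changes ran from -0.09 to 0.08 with adjusted p from 0.741 to 0.951. Their 95% intervals lay between -0.30 and 0.32, so for none of them did the interval reach a fall of the size seen in Fgfr2. A missed threshold does not show that levels are equal, and changes within those intervals remain possible with 2 libraries a group.

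The Sprouty genes encode inhibitors that bind at the membrane and dampen receptor signalling to Ras. Spry2 was the highest of the 3, at 15.3 and 16.3 FPKM in control and 14.9 and 15.9 FPKM in knockout (log2 fold change -0.04, limma adjusted p = 0.905). Spry1 was at 11.6 and 11.8 FPKM in control and 11.7 and 13.3 FPKM in knockout (log2 fold change 0.08, limma adjusted p = 0.754). Its upper value came from knockout replicate 2 alone, and without that library the log2 fold change was -0.002.

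Spry4 was low, at 2.38 and 2.90 FPKM in control and 2.57 and 2.98 FPKM in knockout (log2 fold change 0.06, limma adjusted p = 0.899). For all 3 Sprouty genes the groups overlapped. Their summed level was 29.3 and 31.0 FPKM in control and 29.2 and 32.1 FPKM in knockout. Spry2 lies on chromosome 14 (chr14:105891947-105896819, minus strand, mm10), the chromosome of lncOL1, at a distance of 21.4 Mb.

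The Spred genes encode Sprouty-related proteins that bring the Ras GTPase-activating protein neurofibromin to the membrane. Spred1 had the highest level of the 10 genes in both groups. It was at 20.3 and 24.5 FPKM in control and 21.9 and 23.6 FPKM in knockout (log2 fold change 0.03, limma adjusted p = 0.951). Both knockout values fall inside the span of the control values.

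Spred2 was at 5.57 and 5.11 FPKM in control and 5.18 and 5.11 FPKM in knockout (log2 fold change -0.04, limma adjusted p = 0.884). The values of the groups overlap. For Spred1 the authors' deposited table lists 33.7 FPKM in control and 34.3 FPKM in knockout, well above the per-library values. That table gives its locus as chr2:117121450-117179336, while the per-library tables give chr2:117121071-117182277, so the gene models behind the levels were not the same.

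Dusp6, which encodes the cytoplasmic phosphatase of ERK, was at 2.66 and 2.86 FPKM in control and 2.59 and 2.46 FPKM in knockout. The knockout values were both below the control values, with a gap between the groups smaller than the spread within the control group (log2 fold change -0.09, 95% interval -0.30 to 0.12, limma adjusted p = 0.741). Etv5, an ETS transcription factor induced by FGF signalling, was at 9.27 and 10.1 FPKM in control and 8.59 and 9.82 FPKM in knockout. Its groups overlapped (log2 fold change -0.07, 95% interval -0.28 to 0.14, limma adjusted p = 0.822). The authors' deposited table gives log2 fold changes of -0.20 with q = 0.842 for Dusp6 and -0.16 with q = 0.556 for Etv5.

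**Figure D3:**
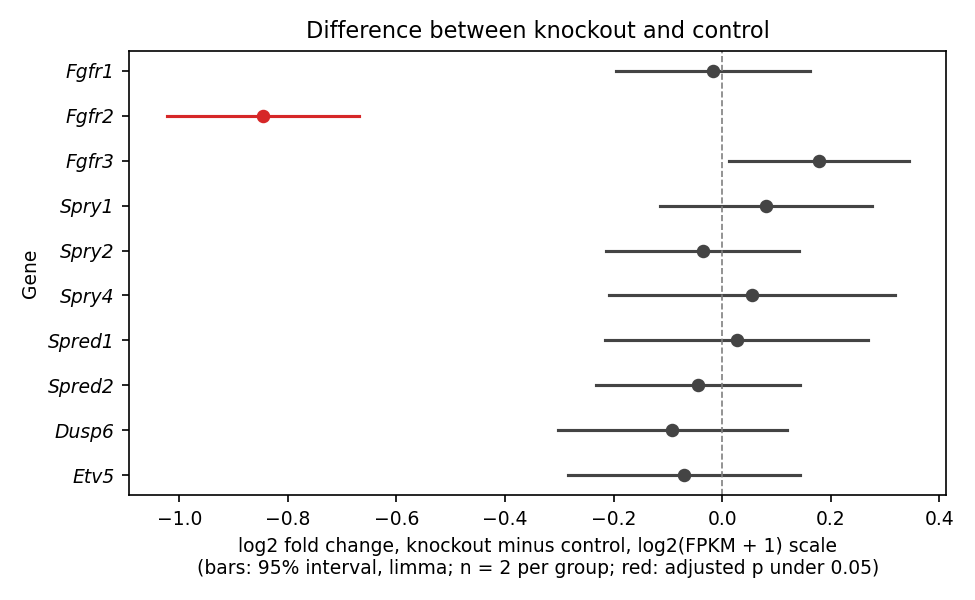
Log2 fold change of each gene, knockout minus control, on the log2(FPKM + 1) scale, with its 95% interval from limma (n = 2 per group) and genes with an adjusted p under 0.05 in red. Fgfr2 stands at -0.85, and the 7 feedback and target genes lie between -0.09 and 0.08.

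Many FGF feedback genes are targets of Capicua, a repressor that ERK switches off and that binds octamers such as TGAATGAA, TGAATGGA, TCAATGAA and TCAATGGA. These 4 octamers were searched on both strands in the RefSeq windows of the 8 genes that had one, together with GGAAGT and CCGGAAG, which contain the GGAA core of ETS sites and overlap one another in part. One of the octamers was present in the windows of Dusp6 and Spry2, against 3.84% of all windows. TCAATGGA was in 0.670% of all windows and TCAATGAA in 0.749%. GGAAGT was in windows of Spred2 and Etv5, against 23.8% of all windows, and CCGGAAG in none of the 8, against 8.86%. A match is a run of letters and not a shown binding site. They are shown because Capicua sites are a known route by which ERK reaches such genes. The printed matches are on the strand opposite to the gene, so the printed gene strand shows the reverse complement in capitals. The printed Dusp6 match begins 24 bases before the start (chr10:99263197-99263224, plus strand) and the Spry2 match 54 bases before it (chr14:105896856-105896883, minus strand). A further match in the Dusp6 window lies just after the start and is not printed.
Dusp6: agagaatgtaTCCATTGAgacgctggct
Spry2: cggcctcttgTTCATTGAgaaaaaaaaa

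By level, the order of the genes in control was Spred1, Fgfr2, Spry2, Fgfr1, Spry1, Etv5, Fgfr3, Spred2, Dusp6 and Spry4, with means from 22.4 down to 2.64 FPKM. The ranges of neighbours overlapped for Spred1 with Fgfr2 and for Dusp6 with Spry4. In knockout Fgfr2 stood at rank 5, after Spred1, Spry2, Spry1 and Fgfr1. There its range overlapped that of Fgfr1 but not that of Fgfr3, and the ranges of Spry1 and Fgfr1, of Fgfr3 and Etv5 and of Spry4 and Dusp6 overlapped as well. These ranks rest on the per-library tables. In the authors' deposited table Fgfr2 comes after Spred1 and Spry2 in knockout, with 10.6 FPKM against 9.93 FPKM for Fgfr1 and 9.11 FPKM for Spry1.

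Counted as a group, 1 of the 10 genes was called lower and 0 higher by limma, and 2 had an unadjusted p under 0.05, Fgfr2 and Fgfr3, against 13.7% of all genes tested. The groups did not overlap for 3 of the 10 (Fgfr2, Fgfr3 and Dusp6), against 43.4% of all genes tested. The authors' deposited table calls 1 of the 10, Fgfr2, against 5.78% of the genes it tested. The median log2 fold change was -0.03 over the 10 genes and 0.005 over all genes tested, with 4 positive and 6 negative values among the 10.

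The pattern of Fgfr2 over the 4 libraries was next compared with that of every other gene tested, as the Euclidean distance between log2(FPKM + 1) values centred on each gene's mean. The nearest 3 genes were Atp10b, which encodes a phospholipid-transporting ATPase, Mbp, which encodes myelin basic protein, and Efnb3, which encodes the membrane ligand ephrin-B3, at distances of 0.060, 0.076 and 0.099. Atp10b was at 3.03 and 3.21 FPKM in control and 1.23 and 1.34 FPKM in knockout. Mbp was at 2683 and 2655 FPKM in control and 1501 and 1520 FPKM in knockout. Efnb3 was at 16.4 and 15.2 FPKM in control and 8.27 and 8.39 FPKM in knockout. All 3 were called lower (limma adjusted p = 0.0122, 0.00504 and 0.00539), with log2 fold changes of -0.85, -0.82 and -0.85. With no filter on low values these calls were lost (adjusted p = 0.0671, 0.140 and 0.0600). Dropping single libraries gave adjusted p-values from 0.0768 to 0.119 for Atp10b, from 0.0608 to 0.139 for Mbp and from 0.0478 to 0.111 for Efnb3, whose call held in 1 of these 4 fits, the one without control replicate 2. Over 4 libraries such likeness is mostly a shared size of the group difference on the log2(FPKM + 1) scale, and it says nothing of shared control. That scale understates the change of a low gene such as Atp10b. The authors' deposited table gives log2 fold changes of -1.30 for Atp10b, -0.93 for Mbp and -1.10 for Efnb3, against -0.95 for Fgfr2.

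Of 97 genes tested in 8 further lists of the pathway, limma called 1 higher and 1 lower, against 0.528% and 0.783% of all genes tested, and their median log2 fold change was 0.01. Among the 96 of these that the authors' deposited table holds, it marks 2 as higher and 7 as lower, against 5.78% of all genes it tested in either direction. Among 18 FGF ligand genes, 1 passed the filter of a mean of 1 FPKM, Fgf2, at 1.61 and 1.24 FPKM in control and 1.63 and 1.03 FPKM in knockout, and 6 were listed at 0 in every library. Among the 3 tested FGF homologous factors, which stay inside the cell and do not activate the receptors, neither limma nor the authors' deposited table called any.

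Of 6 tested co-receptors and receptor relatives neither limma nor the authors' deposited table called any. Fgfrl1, a family member without a kinase domain, was at 43.9 and 42.7 FPKM in control and 50.8 and 56.6 FPKM in knockout. Its log2 fold change of 0.30 did not pass (unadjusted p = 0.00719, limma adjusted p = 0.156). Fgfr4 was below the filter, at no more than 0.0962 FPKM in any library.

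Among 20 tested genes of heparan sulfate proteoglycans and the enzymes that build their chains, limma called 1 higher and 0 lower. The shares over all genes tested were 0.528% and 0.783%. The called gene was Gpc3, which encodes glypican 3, a heparan sulfate proteoglycan of the cell surface. It was at 3.28 and 3.999 FPKM in control and 6.92 and 6.83 FPKM in knockout, a rise of 0.77 on the log2 scale (SE 0.096, limma adjusted p = 0.0191). Its call was lost with each library left out in turn (limma adjusted p from 0.0575 to 0.232) and with no filter on low values (adjusted p = 0.112). Gpc4, which encodes a related glypican, had a log2 fold change of 0.47 (limma adjusted p = 0.0612). Hs6st1, which encodes a sulfotransferase that places the 6-O-sulfate groups that FGFs recognise, had one of -0.34 (limma adjusted p = 0.0884). The authors' deposited table calls all 3, with q = 2.98e-06 for Gpc3, 0.00931 for Gpc4 and 1.23e-09 for Hs6st1. Of the 20 it marks 2 higher and 2 lower, against 5.78% of all genes it tested in either direction.

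Inside the cell, none of 14 tested adaptor genes was called by limma, against 0.783% of all genes tested called lower and 0.528% called higher. Ptpn11, which encodes the phosphatase SHP2, was at 93.8 and 88.6 FPKM in control and 71.7 and 72.3 FPKM in knockout (log2 fold change -0.34, limma adjusted p = 0.0884). For Gab1, which encodes a docking protein that binds SHP2, the log2 fold change was -0.29 (limma adjusted p = 0.125). Of 19 tested genes of the Ras to ERK cascade 1 was called lower and 0 higher, against 0.783% and 0.528% of all genes tested. Rras2, which encodes the small GTPase TC21, a relative of Ras, was at 34.7 and 34.3 FPKM in control and 21.2 and 19.7 FPKM in knockout, a change of -0.73 on the log2 scale (SE 0.071, limma adjusted p = 0.00874). Without each library in turn its adjusted p was 0.0763 to 0.119, and with no filter it was 0.0600. Mapk3, which encodes ERK1, had a log2 fold change of -0.37 (limma adjusted p = 0.0681). In the authors' deposited table both Mapk3 (q = 3.72e-09) and Ptpn11 (q = 5.14e-05) are called lower. That table marks 2 of the 14 adaptor genes and 2 of the 18 cascade genes it holds as lower, and 0 of either as higher. The share over all genes it tested is 5.78% in either direction.

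Of 22 further feedback inhibitors and ERK targets none was called by limma and none in the authors' deposited table. Their median log2 fold change was -0.02, with 10 positive and 12 negative. Ier3, an early response gene, had a log2 fold change of 0.49 (limma adjusted p = 0.145) and Phlda1 one of -0.39 (limma adjusted p = 0.262). At an unadjusted p under 0.05, 2 of the 22 were higher and 1 lower, a share near the 13.7% of all genes tested. Of 12 other growth factor receptors limma called none and the authors' deposited table calls 1 lower. Pdgfra, the receptor of precursors for platelet-derived growth factor, was at 25.0 and 25.7 FPKM in control and 23.3 and 21.8 FPKM in knockout (log2 fold change -0.16, limma adjusted p = 0.397).

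**Figure D4:**
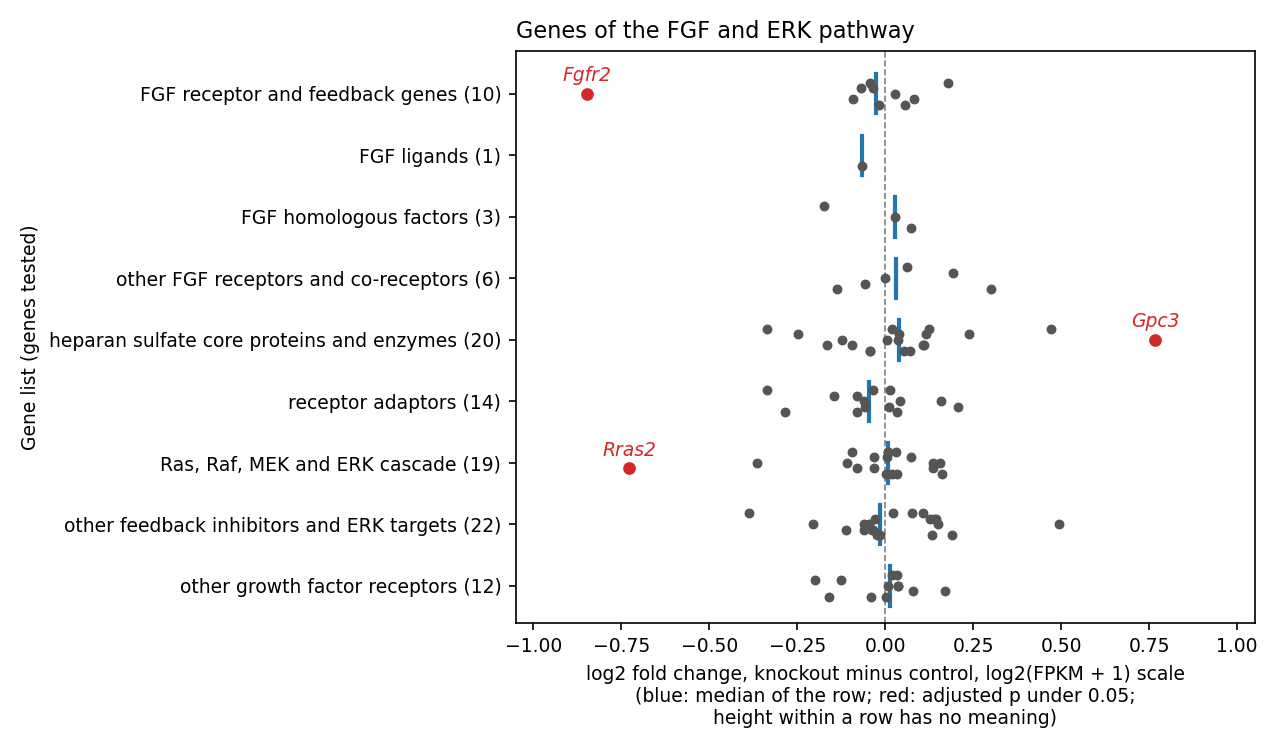
Log2 fold change, knockout minus control, of each tested gene (points) of the 10 genes and of 8 further pathway lists, with the median of each row in blue and genes with a limma adjusted p under 0.05 in red and named. Most points lie near 0, and the named genes are Fgfr2 at -0.85, Rras2 at -0.73 and Gpc3 at 0.77.

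Markers of cell stages and of other cell types moved as follows beside Fgfr2, and their part in its fall was not tested. The counts stand against 0.783% of all genes tested called lower and 0.528% called higher by limma. In the authors' deposited table the share is 5.78% in either direction. Of 8 tested markers of myelinating oligodendrocytes limma called 1 lower, Mbp, the authors' deposited table calls 3 lower, and 6 had negative log2 fold changes, with summed levels of 8301 to 8650 FPKM in control and 6345 to 6567 FPKM in knockout. Of 7 precursor markers limma called none and the authors' deposited table calls 1 higher, with summed levels of 665.9 to 686.9 FPKM in control and 728.9 to 733.8 FPKM in knockout. Most of each precursor sum was Gpr17 (means 394.1 FPKM in control and 436.3 FPKM in knockout). Log2 fold changes were positive for 6 of the 7 and negative for 1, Pdgfra (-0.16). Of 9 tested astrocyte markers limma called none and the authors' deposited table calls 3 lower. All 9 had negative log2 fold changes, from -0.41 to -0.001, while 51.41% of all genes tested had positive ones. The summed levels of the astrocyte markers were 1756 to 1959 FPKM in control and 1600 to 1800 FPKM in knockout, which overlap.

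Of 5 tested microglial markers limma called 2 higher, Tyrobp and Laptm5, and the authors' deposited table calls 1 higher, with summed levels over the 10 listed of 8.80 to 9.63 FPKM in control and 17.4 to 23.4 FPKM in knockout. Of 4 tested neuronal markers limma called none and the authors' deposited table calls 1 higher, with sums over the 8 listed of 128.1 to 136.5 FPKM in control and 146.9 to 147.7 FPKM in knockout. The higher sum came mostly from Map2 (means 93.0 and 105.3 FPKM) and Dcx (8.97 and 11.8 FPKM). Tubb3 was level (27.7 and 27.6 FPKM), and 4 of the 8, Rbfox3, Syt1, Stmn2 and Nefl, were below the filter. Of 2 tested endothelial and mural markers limma called Acta2 higher (adjusted p = 0.0488) and the authors' deposited table also calls 1 higher. Sums over the 8 listed were 5.30 to 5.83 FPKM in control and 7.96 to 8.38 FPKM in knockout. Most of each sum was Acta2 (means 1.43 and 3.20 FPKM) and Cspg4 (3.09 and 3.89 FPKM), which is also in the precursor list. The other 6, with the endothelial genes Cldn5, Pecam1, Kdr and Flt1 among them, were below the filter. Dropping single libraries gave adjusted p-values from 0.0567 to 0.327 for Acta2, from 0.0642 to 0.111 for Laptm5 and from 0.0345 to 0.167 for Tyrobp, whose call held in 1 of these 4 fits, the one without control replicate 2. With no filter on low values all 3 calls were lost (adjusted p = 0.159, 0.0790 and 0.0855). Of the 6 fibroblast markers Pdgfra, which precursors also express, was the 1 that passed the filter. No marker of any of these lists was at 0 in every library.

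The genes lie at chr8:25518759-25575718 (Fgfr1, plus strand), chr7:130162451-130266808 (Fgfr2, minus), chr5:33721724-33737068 (Fgfr3, plus), chr3:37639950-37644599 (Spry1, plus), chr11:19924442-20022597 (Spred2, plus), chr10:99263231-99267489 (Dusp6, plus) and chr16:22381313-22439570 (Etv5, minus) of mm10, as the files give them, with strands from GENCODE M21. All are protein-coding. In GENCODE an exon of Fgfr1, Fgfr3 and Spry1 each overlaps an exon of another annotated gene on the opposite strand. Reads of these pairs cannot be told apart unless counting used strand, on which the sources used here are silent. No exon of another gene overlaps those of Fgfr2 or of the other 6.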

How the data were processed

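RNA was measured in 4 samples, 2 control and 2 knockout. Per the labels' protocols, Trizol was used for extraction and the TruSeq RNA kit of Illumina for the libraries. CASAVA, TopHat, Cufflinks and Cuffdiff and the build mm10 are named in the submitters' processing notes, with no versions or options. Neither annotation nor strand setting is given in the sources used here. Gene FPKM were computed by the authors and deposited in 1 table per sample. A further deposited table of the authors holds Cuffdiff's FPKM per group, log2 fold change, p-value and q-value, per the file headers, and is quoted as theirs.

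The number of reads behind a value is unknown, so no interval for counting error is given. Summed FPKM was 373484 to 383128 per library. Rows of 1 symbol were summed, and 9 symbols were dropped because a status was not OK. The 11361 genes whose FPKM averaged 1 or more were fitted as log2(FPKM + 1) with limma 3.58.1 in R 4.3.3, with an expression trend and no covariate, with Benjamini-Hochberg adjustment across the genes tested. The fit has 2 residual and 4.6 prior degrees of freedom. Called means an adjusted p under 0.05. The log2 scale understates changes of low genes. The fit was tested on simulated data.

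The 10 genes and all lists were chosen with earlier results of these data known. Named are the 10 genes, every called pathway gene and the 3 nearest patterns of each called gene of the 10. Of the 2 most abundant genes and the 2 of smallest p in each pathway list only some are named, mostly those of smallest p. Hras was matched through a synonym. The alternatives were other pseudocounts, filters, scalings and variance models, a replicate block and leaving out each library. Sequences are RefSeq's, and Fgfr1 and Spry4 had none in the table used.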

Additional observations from a re-analysis of the deposited data

How the results depend on the processing

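Over 12 alternatives, 103 of 118 values of the 10 genes kept their direction and their side of the threshold, 5 lost the call and 10 changed sign. The 5 are those of Fgfr2 given above (no filter on low values, where its log2 fold change was -0.85, and each library left out). It kept its call under the other 7. The sign changes all came from leaving out 1 library, in genes within 0.1 of 0 on the log2 scale. Over the libraries left out the log2 fold change ran from -0.077 to 0.043 for Fgfr1, -0.002 to 0.164 for Spry1, -0.080 to 0.008 for Spry2, -0.048 to 0.159 for Spry4, -0.103 to 0.157 for Spred1, -0.096 to 0.008 for Spred2 and -0.157 to 0.016 for Etv5.

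Counts of calls moved more than the genes did. Of all genes, 60 were called higher and 89 lower. These were 105 and 135 with a pseudocount of 0.01, 1 and 3 with no filter on low values (17397 tested), and 11 to 16 and 5 to 26 with 1 library left out, which leaves 1 sample in a group that is assumed to vary like the other. Of the 10 genes, 1 was called lower, against 0 with no filter and 0 without each library. With the replicate number as a replicate block, 158 were higher and 183 lower. Deviations of same-numbered samples from their group means correlated at -0.05, so the numbers are not taken to pair the samples. A minimum mean of 5 FPKM removes Spry4 and Dusp6. With 2 libraries a group and unknown depth, changes of the feedback genes inside their intervals remain possible, and those intervals are not the detection limit of the test.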
